A study of Mus musculus with 6 samples.

Results

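Purinergic receptors are the cell surface proteins through which macrophages sense nucleotides and adenosine outside the cell. The 10 genes described here are the P2Y receptor genes P2ry1, P2ry2, P2ry6, P2ry12, P2ry13 and P2ry14, the P2X channel genes P2rx4 and P2rx7, and the adenosine receptor genes Adora2a and Adora2b. All 10 were measured, among 25206 probe sets, and were found by matching the Entrez gene number in each probe set's name to a gene symbol. The set was chosen by the measured difference in P2ry12 between JG-98 and control, together with its receptor family. The differences below between JG-98 and control are therefore a description of these arrays, and nothing in them counts as independent evidence that the set responded.

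The cells were macrophages derived from mouse bone marrow. The 3 JG-98 samples were exposed to JG-98, which inhibits chaperones of the Hsp70 family, as 0.3 micromole over 16 hours, and the 3 control samples were labelled as given no treatment. The labels state the dose as an amount with no volume, and name no vehicle, mouse strain, age or sex. Each sample was read on 1 single-colour Affymetrix array, and the labels do not state whether the replicates are separate animals or cultures. The p-values therefore reflect the variation among these arrays alone, part or all of which could be technical.

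Nucleotides leave stressed or dying cells and act as find-me and danger signals. P2Y and adenosine receptors act through G proteins, whereas P2X receptors are ion channels opened by ATP. P2Y12 and P2Y13 bind ADP and P2Y14 binds UDP-glucose and related UDP-sugars, and all of them signal through Gi, which lowers cyclic AMP. P2Y1 (ADP), P2Y2 (ATP and UTP) and P2Y6 (UDP) signal through Gq and calcium. The adenosine receptors of the A2 type bind adenosine and raise cyclic AMP through Gs. P2Y12 is best known as a platelet receptor and as a marker of microglia, the macrophages of the brain.

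The median log2 value of an array was 4.08 to 4.24. JG-98 replicate 3 stood apart from the rest, with correlations to the other arrays of 0.992 to 0.993 across probe sets, against 0.995 to 0.996 among the other 5 arrays. The differences of P2ry12, P2ry13, P2ry14, P2ry1, Adora2a and Gpr34, and the likeness of other genes to P2ry12, are given with and without it. All 13 measured macrophage markers, among them Csf1r, Mertk and C1qa, lay above a log2 value of 3.84, the 95th percentile of 1082 olfactory receptor probe sets. Olfactory receptors serve here as genes that macrophages do not use, and a probe set whose mean did not exceed that value in either group is called dim. All 10 purinergic receptors were above it, Adora2a by the smallest margin.

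The transcripts of the 3 Gi-coupled receptors among the 10 listed were lower with JG-98, and in each of them all JG-98 values lay below all control values. P2ry12 had log2 values of 5.57, 5.53 and 5.16 in the JG-98 samples, against 6.37, 6.24 and 6.19 in the control samples. The groups were 0.63 apart at their nearest points, and JG-98 replicate 3 was the lowest array. The mean was 5.42 ± 0.23 in JG-98 and 6.27 ± 0.092 in control samples (SD, n = 3 each). The difference of -0.85 on the log2 scale, with an SE of 0.13 and a 95% interval of -1.15 to -0.55, corresponds to a 1.80-fold lower signal. Only 10 of the 25206 probe sets had a more negative difference. Without JG-98 replicate 3 the difference in P2ry12 was -0.72.

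P2ry13, whose product is the closest functional relative of P2Y12 as an ADP receptor, had 5.98, 6.17 and 5.95 in the JG-98 samples, against 6.42, 6.52 and 6.57 in the control samples. The JG-98 values were all low and the groups did not overlap. The difference was -0.47 ± 0.087 (SE, 95% interval -0.68 to -0.26), or 1.39-fold lower, and it was -0.43 without JG-98 replicate 3. P2ry14, the UDP-sugar receptor gene, had 6.52, 6.68 and 6.23 in the JG-98 samples, against 7.0, 6.90 and 7.04 in the control samples. Here too JG-98 replicate 3 was lowest and no JG-98 value reached a control value. The difference was -0.50 ± 0.12 (SE, 95% interval -0.79 to -0.21), or 1.41-fold lower, and it was -0.38 without JG-98 replicate 3. The intervals of the 3 genes overlapped. The genes were read on the same arrays, so this overlap is no test of their order by size, which was not tested. In bulk samples, fewer cells that express a receptor and less of its RNA per cell cannot be told apart.

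**Figure D1:**
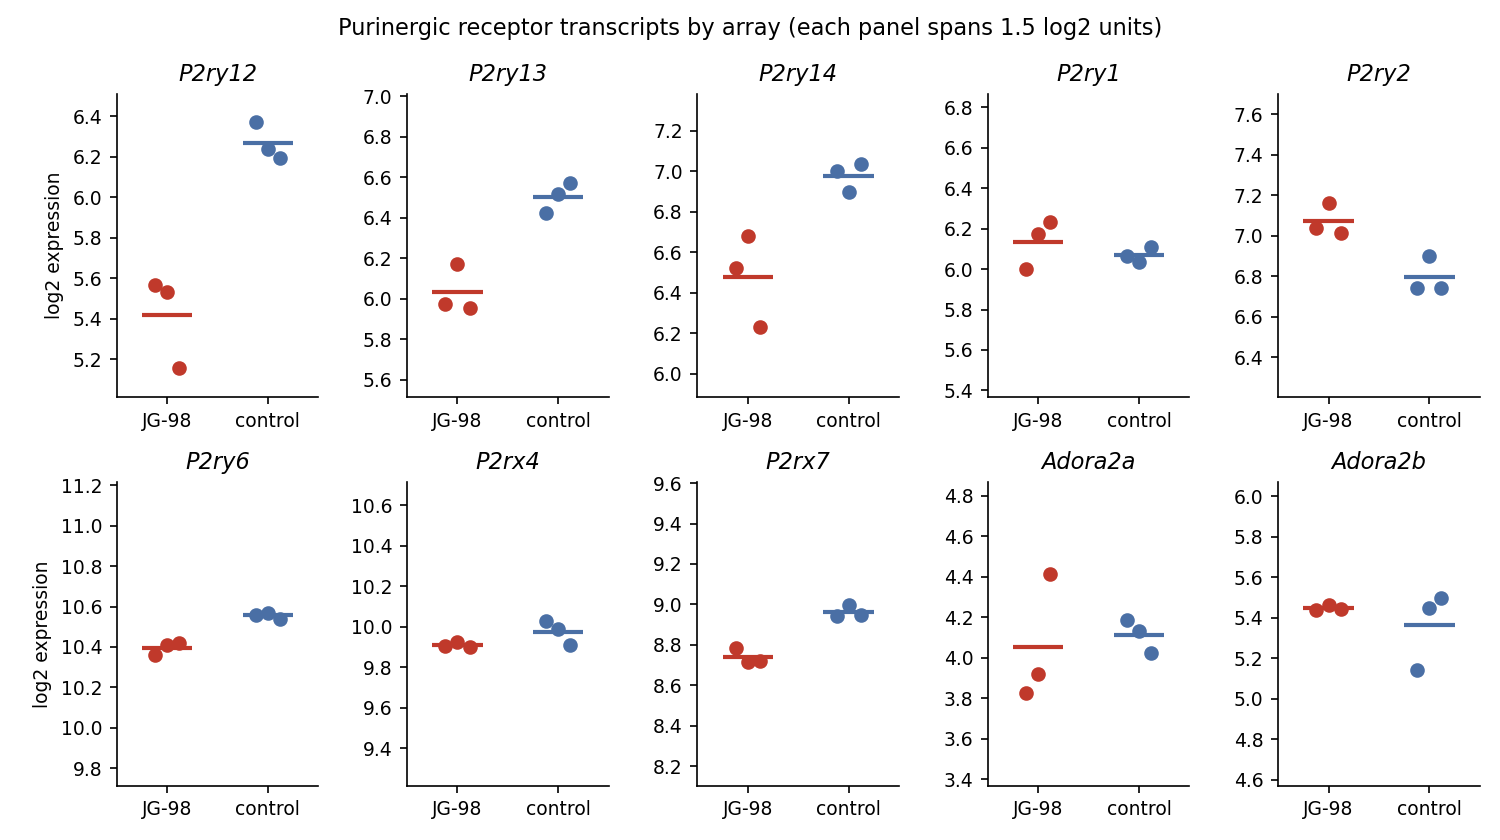
Log2 expression of each purinergic receptor transcript in the 3 JG-98 arrays (left, red) and the 3 control arrays (right, blue), with a bar at each group mean and the same vertical span in every panel. The JG-98 points of P2ry12, between 5.16 and 5.57, lie below the control points, between 6.19 and 6.37, and the groups are also separate in P2ry13, P2ry14, P2ry6, P2rx7 and, in the other direction, P2ry2.

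The Gq-coupled receptor genes did not share one direction. P2ry2, the ATP and UTP receptor gene, was the receptor with the largest positive difference. It had 7.04, 7.16 and 7.01 in the JG-98 samples, against 6.74, 6.90 and 6.74 in the control samples. Each JG-98 value was above each control value, by 0.11 at the nearest points, and the difference was 0.28 ± 0.080 (SE, 95% interval 0.085 to 0.47), or 1.21-fold. P2ry6, the UDP receptor gene, had 10.36, 10.41 and 10.42 in the JG-98 samples, against 10.56, 10.57 and 10.54 in the control samples. Its values were tightly grouped and did not overlap, at a difference of -0.16 ± 0.060 (SE), or 1.12-fold lower. P2ry1, the ADP receptor gene coupled to Gq, had 6.0, 6.17 and 6.23 in the JG-98 samples, against 6.07, 6.04 and 6.11 in the control samples. These ranges overlapped, and the 95% interval of the difference ran from -0.13 to 0.26. The difference was 0.07 with all arrays and 0.016 without JG-98 replicate 3. Among the ADP receptor genes, P2ry12 and P2ry13 were thus lower on every JG-98 array while P2ry1 overlapped between the groups, and this contrast between the genes was not tested.

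Of the ATP-gated channels, P2rx7, which opens at high ATP and triggers the NLRP3 inflammasome, had 8.79, 8.71 and 8.72 in the JG-98 samples, against 8.95, 9.0 and 8.95 in the control samples. The groups did not overlap, and the difference was -0.22 ± 0.062 (SE, 95% interval -0.37 to -0.074), or 1.17-fold lower. P2rx4, a channel found largely in lysosomes, had 9.90, 9.92 and 9.90 in the JG-98 samples, against 10.03, 9.99 and 9.91 in the control samples. The groups overlapped through control replicate 3, and the 95% interval of -0.22 to 0.087 included 0.

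The adenosine receptor genes did not separate the groups. Adora2b, which encodes the low-affinity A2 receptor, had 5.44, 5.47 and 5.44 in the JG-98 samples, against 5.14, 5.45 and 5.50 in the control samples. Control replicate 1 was low, and the 95% interval of the difference was -0.17 to 0.33. Adora2a, which encodes the high-affinity A2 receptor, had 3.83, 3.92 and 4.41 in the JG-98 samples, against 4.19, 4.14 and 4.02 in the control samples. JG-98 replicate 3 was the highest array and the other JG-98 arrays were the lowest, so that the difference of -0.06 (95% interval -0.44 to 0.32) became -0.24 without that array (limma adjusted p = 0.39).

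**Figure D2:**
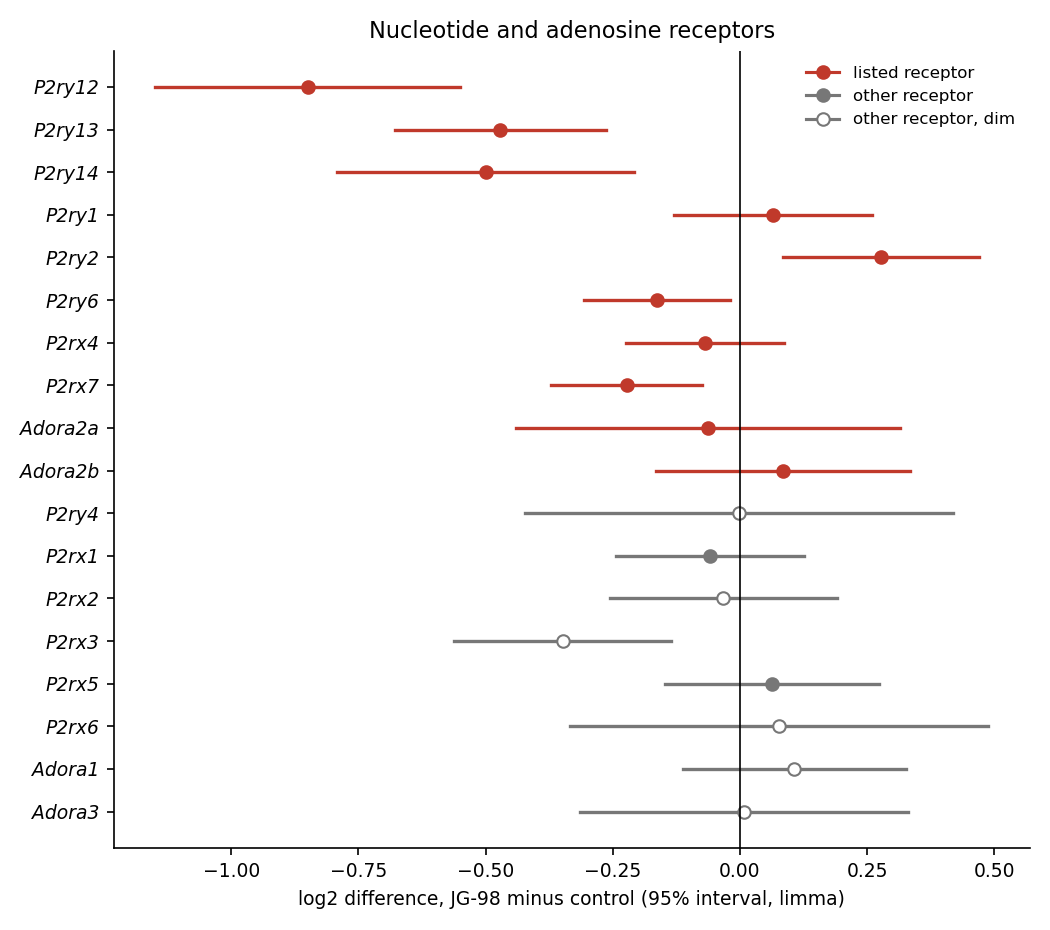
Log2 difference, JG-98 minus control, with its 95% interval from limma for the 10 listed receptors (red) and 8 other nucleotide and adenosine receptors (grey, open where dim in both groups). P2ry12 lies farthest from 0, at -0.85, and P2ry2 is the highest of the listed receptors, at 0.28.

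In the fit across all probe sets, limma with Benjamini-Hochberg adjustment called 0 of the 10 receptors at an adjusted p under 0.05. Over all probe sets it called 10, which is 0.0397%. The smallest adjusted p of a receptor was 0.19, for P2ry12, followed by 0.26 for P2ry13 and 0.37 for P2ry14. At an unadjusted p under 0.05 there were 6 receptors, 5 lower and 1 higher, where the share over all probe sets was 8.32% (4.48% lower and 3.84% higher). All JG-98 values lay below all control values in 5 receptors, against a share of 8.44% over all probe sets, and above them in 1 receptor, against 7.12%. All 10 receptors were above the dim level, as were 14068 of the probe sets. Of those 14068, 1729 lay all below, 1368 lay all above, and 1553 had an unadjusted p under 0.05 in limma. Without JG-98 replicate 3 limma again called 0 receptors, with 7 at an unadjusted p under 0.05, where the share over all probe sets was 11.3%. The median difference of the 10 receptors was -0.12, and that of all probe sets was 0.00080. Since this contrast led to the choice of the set, nothing is read from these counts.

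The calls depended on how limma modelled the variance. With an intensity trend, which lets the expected variance depend on the level, P2ry12, P2ry13, P2ry6 and P2rx7 passed (limma adjusted p = 0.014, 0.039, 0.039 and 0.040) where 1.01% of all probe sets did. After removal of probe sets below the median level, P2ry12 passed (limma adjusted p = 0.048) where 0.576% did.

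P2ry14, P2ry13 and P2ry12 lie together on chromosome 3, in a group of receptor genes inside the span of Med12l, a Mediator subunit gene. Gpr171, P2ry14, P2ry13, P2ry12 and Igsf10 stand in that order along the chromosome. Med12l, Gpr171 and Igsf10 were dim in both groups, and each had overlapping groups. Med12l had a difference of -0.13 ± 0.094 (SE), Gpr171, another receptor gene, of -0.03 ± 0.081, and Igsf10 of 0.14 ± 0.14. P2ry1 is on chromosome 3 as well, outside this group of genes. It was above the dim level, its groups overlapped and its difference was 0.07. Of the other receptor genes, P2ry6 and P2ry2 are adjacent on chromosome 7 with differences of -0.16 and 0.28. P2rx7 and P2rx4 are adjacent on chromosome 5 with differences of -0.22 and -0.07.

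Gpr34, an X-linked gene for a lysophosphatidylserine receptor related in sequence to P2Y12, was lower as well. It had 5.42, 5.70 and 5.24 in the JG-98 samples, against 6.22, 6.0 and 6.04 in the control samples. The groups did not overlap and JG-98 replicate 3 was again the lowest array. The difference was -0.63 ± 0.13 (SE), or 1.55-fold lower, -0.52 without JG-98 replicate 3, and it did not pass (limma adjusted p = 0.29).

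**Figure D3:**
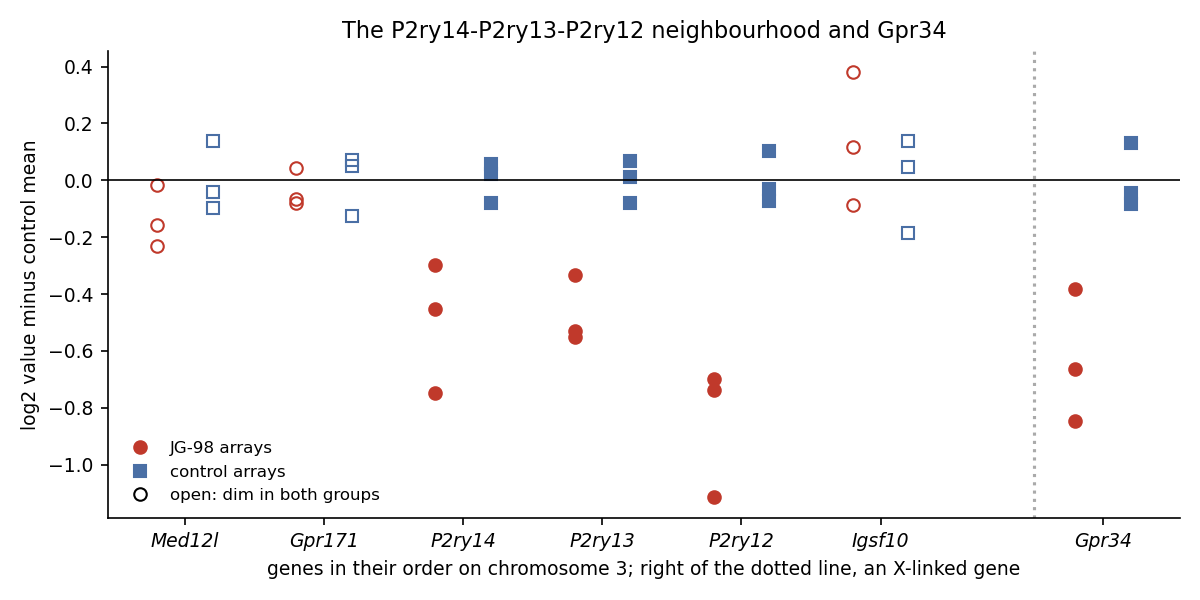
Log2 values minus the control mean for each JG-98 array (red circles) and control array (blue squares), for genes in chromosome order around P2ry12 and, right of the dotted line, for Gpr34. Open symbols mark genes dim in both groups. P2ry14, P2ry13, P2ry12 and Gpr34 are the genes whose JG-98 points all lie at -0.299 or lower.

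The promoter sequences of these 3 receptors and of P2ry2, which differed in the other direction, are shown because the receptors with the largest negative differences share a stretch of chromosome. They come from RefSeq for build GRCm38.p6 and run from 250 bases before to 50 bases after an annotated start. Each is written 5′ to 3′ on the gene's own strand. Capitals mark GAGGAA, the core bound by the macrophage regulator PU.1, on either strand.

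P2ry12, chr3:59262936-59263235, minus strand: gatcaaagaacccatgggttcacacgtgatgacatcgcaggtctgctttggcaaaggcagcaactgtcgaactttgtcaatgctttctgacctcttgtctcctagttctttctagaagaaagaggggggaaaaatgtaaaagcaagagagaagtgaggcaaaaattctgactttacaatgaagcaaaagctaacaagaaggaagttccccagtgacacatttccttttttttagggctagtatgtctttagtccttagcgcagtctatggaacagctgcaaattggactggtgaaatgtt
P2ry13, chr3:59210833-59211132, minus strand: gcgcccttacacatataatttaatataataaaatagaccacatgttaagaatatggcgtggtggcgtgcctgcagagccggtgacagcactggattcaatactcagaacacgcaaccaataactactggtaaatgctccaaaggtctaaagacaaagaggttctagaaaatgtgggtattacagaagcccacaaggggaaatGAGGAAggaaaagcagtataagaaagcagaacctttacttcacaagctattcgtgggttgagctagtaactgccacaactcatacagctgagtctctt
P2ry14, chr3:59153443-59153742, minus strand: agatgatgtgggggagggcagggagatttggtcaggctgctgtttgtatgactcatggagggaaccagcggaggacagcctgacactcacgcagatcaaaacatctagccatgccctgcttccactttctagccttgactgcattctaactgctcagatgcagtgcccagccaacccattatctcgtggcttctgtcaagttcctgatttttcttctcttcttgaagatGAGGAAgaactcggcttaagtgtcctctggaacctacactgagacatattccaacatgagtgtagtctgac
P2ry2, chr7:101012004-101012303, minus strand: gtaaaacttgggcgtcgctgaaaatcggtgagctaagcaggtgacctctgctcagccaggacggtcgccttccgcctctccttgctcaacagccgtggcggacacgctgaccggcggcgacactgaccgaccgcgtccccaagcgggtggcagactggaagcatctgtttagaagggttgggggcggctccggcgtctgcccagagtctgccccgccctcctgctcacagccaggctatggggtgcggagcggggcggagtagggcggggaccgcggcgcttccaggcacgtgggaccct

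Counting back from the annotated start, P2ry13 held GAGGAA at position -48 and P2ry14 held it at position -21. P2ry12 and P2ry2 did not hold these letters in this window. P2ry14 has 4 annotated starts, and the first is shown. In all, 8 of the 10 receptors had 13 entries in the promoter table, some of which overlap, and 7 entries held GAGGAA, from P2ry13, P2ry14 and P2rx7. By gene these are 3 of the 8 receptors. The 4 entries of P2ry14 are among the 7, and overlapping entries of that gene share a site that is counted more than once. Over 32851 promoter entries of the same length the share was 28.3%, which is by entry and not by gene. The letters TGATGNAA, bound by ATF4 with CHOP, were in 0 of the 13 entries, where 3.97% of all entries hold them. The paired heat shock unit GAANNTTC was in 3 entries, from P2ry14, P2rx7 and Adora2b, where the share of all entries was 7.86%. The AP-1 site TGANTCA was in 3 entries, from P2ry14 and P2rx7, where the share was 7.81%. All motifs were searched on both strands, and no sites of different motifs overlapped. A match describes the letters and shows no binding.

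The promoters differed in base composition. The windows of P2ry12, P2ry13 and P2ry14 shown above had a GC content of 42.3%, 42.3% and 49.3%, where the median over all entries was 52.7% with quartiles of 45.7% and 61.7%. The windows of P2rx4, P2ry1 and Adora2b had 60.3%, 70.7% and 70.0%, and that of P2ry2 shown above had 67.3%. The entries of P2rx7 lay between, at 53.3% and 51.7%. With 8 genes this is a description.

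The transcripts whose profile over the 6 arrays was most like that of P2ry12 were sought among 23739 other named probe sets. Likeness was the root mean square difference between log2 profiles, each centred on its own mean. By this measure P2ry12 itself varied by 0.448 about its mean. The nearest was Ms4a6b, a membrane protein gene of macrophages, at 0.031. It had 7.84, 7.81 and 7.40 in the JG-98 samples, against 8.57, 8.47 and 8.39 in the control samples, with JG-98 replicate 3 lowest as in P2ry12. Mxd4, a MYC-antagonist gene, came next at 0.077, then Gbp3, which was dim, at 0.088, the neutrophil collagenase gene Mmp8 at 0.11 and Tcp11l2 at 0.11. Gpr34 was 10th in this order, P2ry14 29th and P2ry13 82nd, whereas P2rx7 was 930th and P2ry6 2237th. The profiles were not scaled, so places in this order depend partly on the size of each gene's difference between the groups. P2ry12 was chosen for its own difference, so the places are a description and no separate evidence of shared regulation. Without JG-98 replicate 3, a setting chosen after seeing the data, Ms4a6b was still nearest, at 0.034, and Mmp8, Ighm, Abca9 and Mxd4 followed at 0.052 to 0.077. Gbp3 was then 7th, Tcp11l2 20th, Gpr34 38th, P2ry13 183rd and P2ry14 190th, so these places depended on that array. For P2ry2 the nearest were Olfr870 and Traj41, both dim, and Kdm7a, Dgkg and Cpeb4, at 0.030 to 0.041.

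Other receptors for nucleotides and adenosine gave few usable signals. Of 8 measured, 6 were dim, and 0 passed the test (limma, with 1 at an unadjusted p under 0.05, where the share over all probe sets was 8.32%). P2rx3, a channel gene of sensory neurons, was the 1 that separated the groups, with 2.66, 2.81 and 2.68 in the JG-98 samples, against 2.96, 3.20 and 3.04 in the control samples. Its difference was -0.35 ± 0.089 (SE), at values where background is not excluded. P2rx1 and P2rx5, above the dim level, differed by -0.06 and 0.06. The adenosine receptor genes Adora1 and Adora3 were dim and overlapped between the groups, with differences of 0.11 and 0.0080.

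The wider purinergic system was described by lists of genes, and in limma 0 genes of any of them passed over all probe sets. The counts at an unadjusted p under 0.05 below stand beside the 8.32% of all probe sets at that level, and a count near that share is no result about a list. Of 19 measured ectonucleotidases and other extracellular purine enzymes, 14 had a positive and 5 a negative difference, with a median of 0.03 and 1 gene at an unadjusted p under 0.05. That gene was Entpd1, which encodes CD39, the enzyme that breaks down ATP and ADP at the cell surface. It averaged 10.14 ± 0.064 in JG-98 and 10.35 ± 0.034 in control samples (SD, n = 3 each), a difference of -0.21 ± 0.067 (SE, limma adjusted p = 0.48). The purine nucleoside phosphorylase gene Pnp differed by -0.18 ± 0.088 and Entpd6 by 0.15 ± 0.097.

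Of 13 genes for ATP and UDP-sugar release, 7 had a positive difference and the median was 0.05. There were 2 at an unadjusted p under 0.05, where the share over all probe sets was 8.32%. Panx1, the pannexin channel through which cells release ATP, had 7.56, 7.63 and 7.66 in the JG-98 samples, against 7.36, 7.31 and 7.30 in the control samples. All JG-98 values were higher, by a difference of 0.29 ± 0.065 (SE, limma adjusted p = 0.33). Calhm2, a large-pore channel gene, differed by -0.27 ± 0.071, and Lrrc8e, a subunit gene of volume-regulated channels that was dim, by -0.36 ± 0.16. Among 7 nucleoside transporters the median was 0.02, with 2 at an unadjusted p under 0.05, beside the same share of 8.32%. The equilibrative transporter genes Slc29a2 and Slc29a3 differed in opposite directions, by 0.26 ± 0.080 and -0.18 ± 0.064, each without overlap between the groups.

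Downstream genes showed small differences. The 12 genes of P2X7 effects and the inflammasome had a median of -0.0014 and a range of -0.11 to 0.10, with 0 at an unadjusted p under 0.05. Pstpip1, at 0.10 ± 0.061, and the adaptor gene Pycard, at -0.10 ± 0.060, had the smallest p-values. Of 32 G protein and second-messenger genes, 15 had a positive and 17 a negative difference, with a median of -0.01. At an unadjusted p under 0.05, where the share over all probe sets was 8.32%, there were 3 genes. These were the phospholipase C gene Plcb4, at 0.26 ± 0.060, the G protein gamma subunit gene Gng2, at -0.18 ± 0.063, and Pik3r6, a regulator of the PI3-kinase driven by G proteins, at -0.21 ± 0.075.

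**Figure D4:**
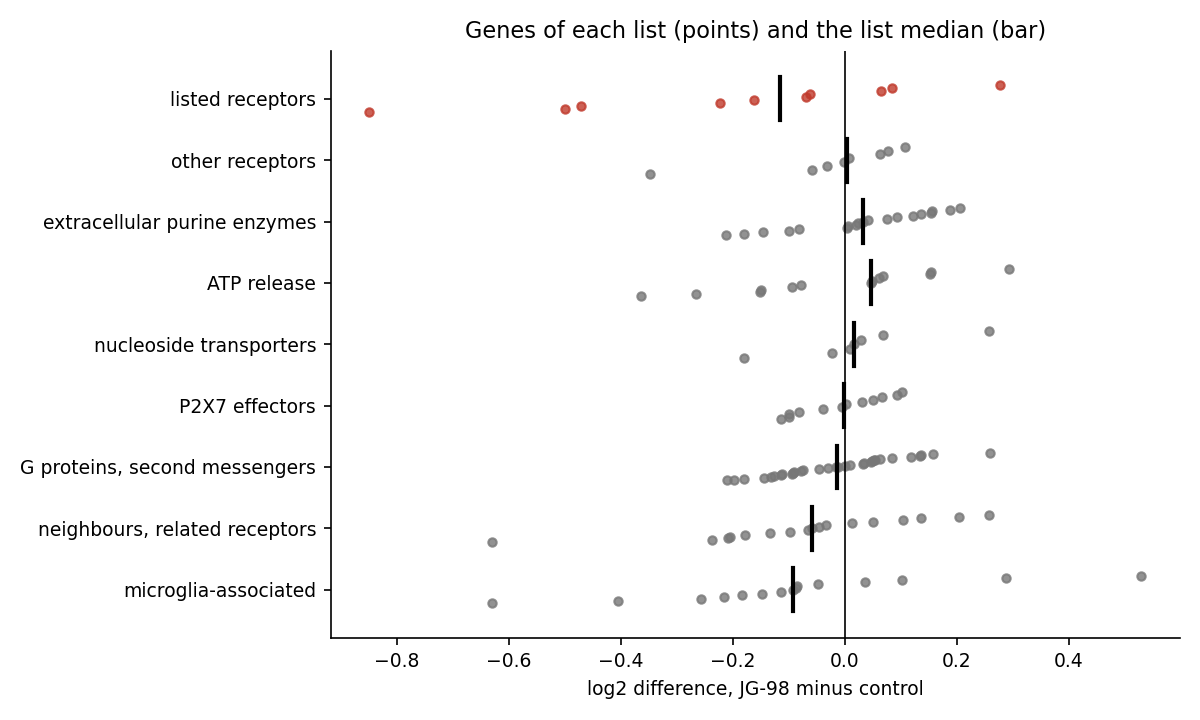
Log2 difference, JG-98 minus control, of every measured gene of each list (points, the listed receptors in red) with the list's median (bar). The listed receptors have a median of -0.12 and the other lists of the purinergic system have medians between -0.01 and 0.05, while the neighbouring and related receptors and the microglia-associated genes have medians of -0.06 and -0.09.

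Genes that are often measured with P2ry12 in microglia had a median of -0.09 over 15 genes, of which 11 had a negative difference and 0 passed. In 7 of them all JG-98 values lay below all control values, where the share over all probe sets was 8.44%. There were 6 at an unadjusted p under 0.05, 5 lower and 1 higher, where the shares were 4.48% and 3.84%. Slco2b1, an organic anion transporter gene, had 5.55, 5.56 and 5.61 in the JG-98 samples, against 5.94, 6.01 and 5.98 in the control samples. Its groups were well separated, and its difference was -0.40 ± 0.062 (SE, limma adjusted p = 0.19). Fcrls, an Fc receptor-like gene, differed by -0.26 ± 0.061. Gpr84, chosen after its values were seen, had the largest positive difference of the list, 0.53 ± 0.13. The list shares Gpr34 with the related receptors, and Csf1r and Mertk with the macrophage markers.

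In limma 0 markers of any cell type passed, and the smallest adjusted p was 0.13, for the B cell marker Ighm. The summed signals of 4 marker lists did not overlap between the groups. No background share was worked out for sums, and a sum is weighted toward its brightest genes, so nothing is read from that count. The summed signal of the 13 macrophage markers, after antilogs, was 19722 to 20840 in JG-98 and 21097 to 21385 in control samples. Of the 13, 10 had a negative difference, where 12533 of all 25206 probe sets did. All JG-98 values lay below all control values in 6 (8.44% over all probe sets, and 1729 of the 14068 above the dim level). They lay above all control values in 2 (7.12% over all probe sets, and 1368 of those 14068). In limma 3 had an unadjusted p under 0.05 (8.32% over all probe sets, and 1553 of those 14068). These were C1qa, Mertk and Mrc1, with differences of -0.24 ± 0.066, -0.22 ± 0.067 and -0.22 ± 0.074 (SE). The sum of 12 megakaryocyte and platelet markers, of which 7 were dim, was 252 to 271 in JG-98 and 217 to 247 in control samples. Of the 12 markers, 10 overlapped between the groups, where 21283 of all 25206 probe sets did. The 2 that did not were higher with JG-98, Vwf by 0.28 ± 0.083 and Treml1 by 0.29 ± 0.10 (SE). The sum of 5 B cell markers was 282.5 to 308.3 in JG-98 and 441.5 to 466.4 in control samples. Within it, the immunoglobulin gene Ighm, by far the brightest of the 5, differed by -0.68 ± 0.081 (SE, limma adjusted p = 0.13). The list did not share a direction: 2 of the 5 had a positive difference, and Ms4a1, 1 of 3 that were dim, was higher on each JG-98 array than on any control array, by 0.28 ± 0.067 (SE). The remaining 3 markers overlapped. The sum of 8 dendritic cell markers was 137 to 154 in JG-98 and 130 to 134 in control samples, with 5 of 8 dim and 7 of 8 overlapping. The brightest of the 8, Itgax, overlapped between the groups, with a difference of 0.20 ± 0.14 (SE). The sum of 10 neutrophil markers was 100.3 to 113.1 in JG-98 and 82.3 to 100.6 in control samples, a small overlap. Of the 10, 9 had a positive difference and 9 were dim. Lcn2 separated the groups, at 4.85 ± 0.12 in JG-98 and 4.23 ± 0.22 in control samples (SD, n = 3 each), a difference of 0.62 ± 0.13 (SE, limma adjusted p = 0.29). The sums of mast cell and basophil, T and NK cell, and stromal markers overlapped between the groups. The part of these markers in the receptor differences was not tested.

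Under 14 other settings of the analysis, 7 of the 10 receptors kept the sign of their difference throughout, and P2ry1, Adora2a and Adora2b did not. P2ry12 ranged from -0.92 to -0.72, P2ry13 from -0.54 to -0.43 and P2ry14 from -0.60 to -0.38. P2ry2 ranged from 0.23 to 0.33, P2rx7 from -0.25 to -0.20 and P2ry6 from -0.18 to -0.15.

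**Figure D5:**
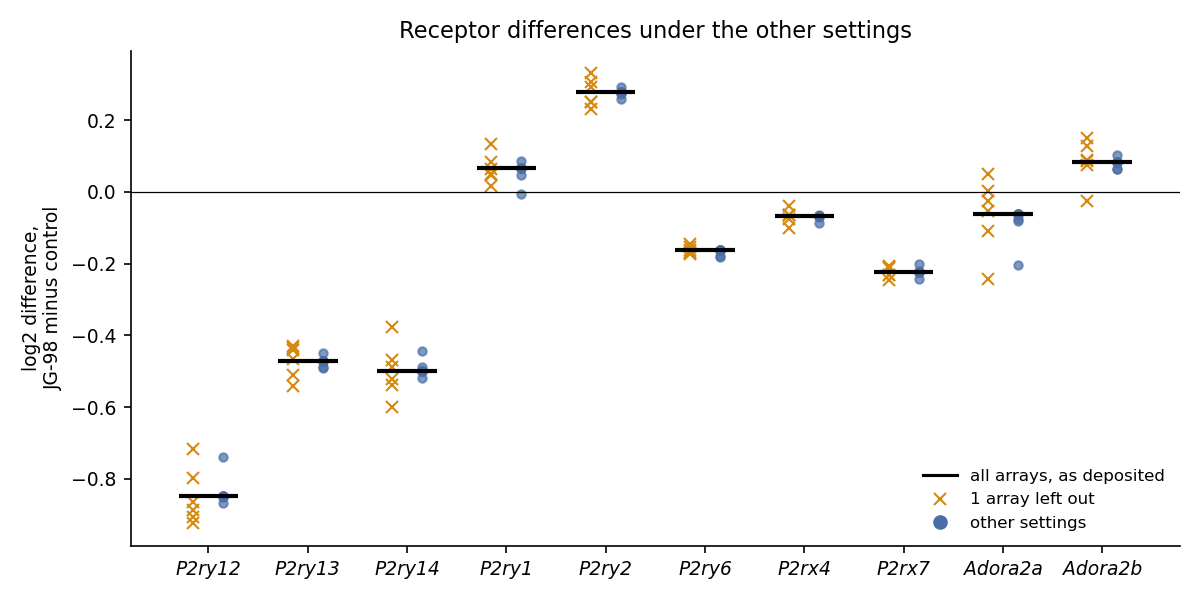
Log2 difference, JG-98 minus control, of each purinergic receptor with all arrays as deposited (bar), with 1 array left out (crosses) and under the other settings (dots). P2ry12 stays between -0.92 and -0.72, whereas P2ry1, Adora2a and Adora2b cross 0.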

How the data were processed

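The deposited table holds 1 log2 expression value for each probe set on each array, as the authors made it. RMA, affy and R 2.15.1 are named, without their roles, per the submitters' processing notes. RMA, as generally defined, normalizes arrays against each other, so a change common to all genes is lost, and it compresses differences of dim probe sets. The platform annotation named 23185 of 25206 probe sets. In all of these the probe set's name is the Entrez number, so a further 555, Adora2a and Adora2b among them, were named by that number in a RefSeq gene table (GRCm38.p6). That table was used for names and gene order, and its promoter table for sequences.

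The fit used R 4.3.3 and limma 3.58.1 on all 6 arrays with no covariate, by lmFit and then a two-sided eBayes test, with Benjamini-Hochberg adjustment over all 25206 probe sets and a threshold of 0.05. A difference is JG-98 minus control. The fit was tested on data simulated from its own variance model, with equal spread on every array. Those data had no array that stood apart, so this checked the working of the fit and not the calls made here. The number of arrays limits the precision. The receptors and the gene lists were chosen with earlier results of these data known. By rule, names were drawn from the nucleotide and adenosine receptors, the 3 genes with the smallest p of each other list, and the 5 genes nearest in profile to P2ry12 and to P2ry2, and not every gene the rule allows is named. Med12l, Gpr171, Igsf10 and Csf1r, named for their place or as a marker, and Gpr84, Abca9 and the later places in the likeness order were chosen after values were seen. Other settings were median centring, quantile normalization, 2 filters against dim signals, an eBayes prior with an intensity trend or robust fitting, array weights (statmod 1.5.0), a replicate block and leaving out each array. Some genes of the lists are not reported here. Motifs were searched in Python 3.11.15.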

Additional observations from a re-analysis of the deposited data

How the results depend on the processing

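The number of probe sets called by limma was 10 with all arrays as deposited. It was 74 after the dim filter at the median level, 46 after the filter at the olfactory receptor level, 254 with an intensity trend, 25 with array weights, and 0 to 5 when 1 array was left out (5 without JG-98 replicate 3, 0 without any other). The number of purinergic receptors called was 0 in 12 of the 14 other settings, 1 after the dim filter at the median level (which removed Adora2a) and 4 with an intensity trend. P2ry12 then passed at the same difference of -0.85 (limma adjusted p = 0.048 and 0.014), and its adjusted p reached 0.67 among the other settings. The filter at the median level left 12841 probe sets, over which the adjustment is milder. It also changed the fitted variance, with an SE for P2ry12 of 0.1196 against 0.1252 in the main fit. Array weights put P2ry1 at -0.0060. When 1 array was left out, Adora2a ranged from -0.243 to 0.051 and Adora2b from -0.026 to 0.151, so both changed sign. With the replicate block limma called 0 probe sets (1855 at an unadjusted p under 0.05) and P2ry12 had an adjusted p of 0.47. Deviations of same-numbered arrays from their group means correlated at 0.095, -0.126 and 0.104, and 2 of 6 arrays correlated best with their own number. With 3 arrays per group these values cannot decide whether same-numbered samples were paired, and the labels name no pairing.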
